A study of Mus musculus with 4 samples.

Results

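The acute-phase protein genes described here are Saa1, Saa2, Saa3, Orm1, Orm2, Hp, Fgl1, Hamp, Itih3 and Lcn2, 10 of the 30439 genes or transcripts on the array. The rule selects them by symbol and uses no measured value, though the list was drawn up with earlier results of these data known. Every gene probe that carries one of these symbols in the scanner files was taken, which gave 12 probes, 3 for Fgl1 and 1 for each of the other members. All 12 probes were well above background on all 4 arrays, and none of their spots was flagged as an outlier or saturated.

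The 4 one-color Agilent arrays, 1 for each condition, carry liver RNA of male C57BL/6J mice on a high-fat diet (HFD, 24 weeks by the labels). Cont mice carry floxed Drp1 alleles without Cre and are littermates of the Drp1LiKO mice, and the labels call them wild type. Drp1LiKO mice, labelled knockout, carry the same floxed alleles and Cre under the albumin promoter, which is active in hepatocytes. Drp1, encoded by Dnm1l, is the dynamin-related GTPase that divides mitochondria. The refed livers were taken 4 h after food was returned following a fast of 17 h (from the series description, the methods give a slightly shorter fast). The labels of the other Cont and Drp1LiKO livers name no feeding state. They are called fasted here from the description of the experiment, and every value called fasted rests on that reading. The methods place the collection of refed samples later in the day than experiments after the overnight fast. Under that schedule a refeeding difference is also a difference in clock time, and refeeding and clock time cannot be told apart. Whether an array holds RNA of 1 mouse or of several is not given in the sources used here.

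With 1 array per condition, a difference between conditions is a value without a replicate check, and its standard error (SE) is that of the measurement alone, taken from the error model of the scanner software. The 75th percentile of the gene spots, to which the signals of each array were scaled, ranged from 357 to 722 and was higher on the Drp1LiKO array in both feeding states. Of the 43020 gene spots of an array, 48.7% to 58.2% were well above background. The Dnm1l probe differed by -0.21 in the fasted and -0.12 in the refed state (log2 Drp1LiKO over Cont, SE 0.20 for each). Its place relative to the deleted exons is not known, so it does not check the genotype labels. All 10 hepatocyte markers, among them Alb, were well above background on every array.

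Acute-phase proteins are plasma proteins whose synthesis in hepatocytes shifts during infection, injury and metabolic stress. Interleukin-6 acts through STAT3, and interleukin-1 and TNF act through NF-kB and C/EBP factors, to raise the positive acute-phase genes, while albumin and transthyretin belong to the negative ones. Hepcidin, the product of Hamp, is also driven by iron through bone morphogenetic proteins (BMPs). In mice, serum amyloid A and the orosomucoids are among the most responsive of these genes.

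After refeeding these genes differed from the fasted state mainly in the Drp1LiKO livers. There all 10 members had a higher scaled signal on the refed than on the fasted array (all but Hamp after quantile normalization, where it had -0.16), and 7 were at least 2-fold higher (Saa1, Saa2, Saa3, Orm1, Orm2, Fgl1 and Lcn2), where 2.85% of the 14447 genes read well above background on all 4 arrays were. None was at least 2-fold lower, against 3.02%. In the Cont livers 2 members, Saa3 and Hamp, were at least 2-fold higher after refeeding, against 1.6% of all genes, and 1, Fgl1, was at least 2-fold lower, against 2.37%. The median log2 difference of the members was 1.43 in Drp1LiKO and 0.04 in Cont livers, beside 0.12 and 0.11 over all genes. Most members are bright, and differences varied with brightness. With an intensity-dependent centre, which subtracts the median of the 500 genes nearest in brightness, the member medians were 1.11 and -0.30.

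Between the genotypes, 3 members (Saa1, Saa2 and Fgl1) were at least 2-fold lower in the fasted Drp1LiKO liver, against 3.31% of all genes, and none was at least 2-fold higher, against 2.75%. In the refed livers 2 members (Fgl1 and Lcn2) were at least 2-fold higher in Drp1LiKO, against 3.12%, and none was at least 2-fold lower, against 3.99%. The median difference of the members was -0.72 fasted and 0.47 refed, beside -0.12 and -0.08 over all genes. With the intensity-dependent centre the member medians were -0.45 fasted and 0.57 refed. On the fasted Drp1LiKO array 9 of the 10 members, all but Hamp, had their lowest value of the 4 arrays, as had 39.3% of all genes. After quantile normalization 8 members had it there, against 29.3%. Of the listed negative acute-phase genes, all but Serpina6 and Pon1 also had their lowest scaled value there. Of the 9 members, 6 had their highest value on the refed Drp1LiKO array, a shape shown by 9.62% of all genes. After quantile normalization 6 members showed this shape, against 7.33%.

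**Figure D1:**
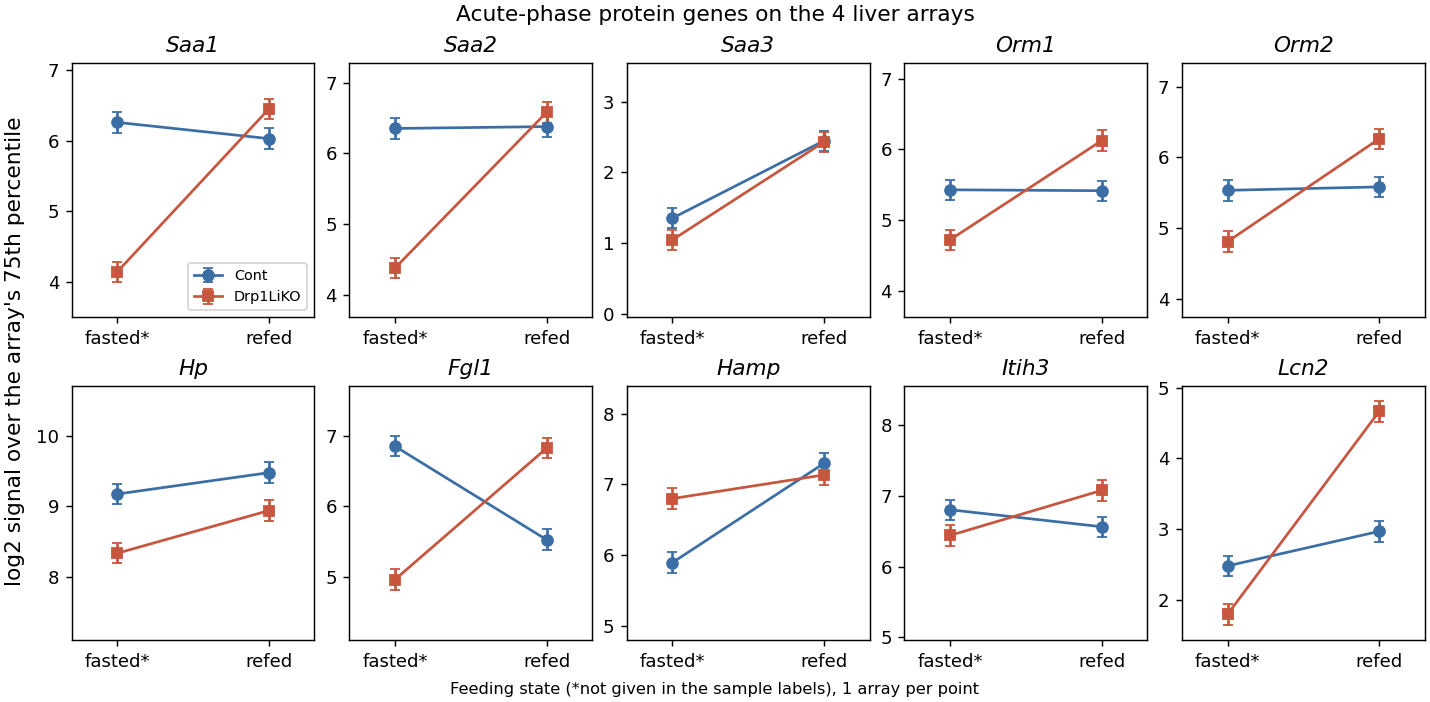
Scaled log2 signal of the 10 acute-phase protein genes (y axis, log2 of the signal over the 75th percentile of the array) in fasted and refed Cont (circles) and Drp1LiKO (squares) livers, 1 array per point, with bars for the measurement SE. The lines of Saa1, Saa2, Orm1, Orm2, Fgl1, Itih3 and Lcn2 cross from lower to higher Drp1LiKO values, while those of Saa3 and Hp do not cross upward and Hamp runs the other way.

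Saa1 and Saa2 encode the serum amyloid A proteins that the liver secretes onto high-density lipoprotein. The genes lie next to each other on chromosome 7. Their upstream sequences are shown because both genes gave nearly the same 4 values. They are the 250 bases before each RefSeq gene start (GRCm38.p6, Saa1 at chr7:46742981-46743230 on the minus strand, Saa2 at chr7:46751583-46751832 on the plus strand), with the C/EBP word TTGCNNAA, searched on both strands, in capitals.
Saa1 upstream: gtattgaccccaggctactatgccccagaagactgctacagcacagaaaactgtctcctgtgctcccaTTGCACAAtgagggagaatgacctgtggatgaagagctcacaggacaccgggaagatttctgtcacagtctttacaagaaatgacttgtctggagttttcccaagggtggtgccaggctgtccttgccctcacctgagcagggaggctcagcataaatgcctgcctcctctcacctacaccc
Saa2 upstream: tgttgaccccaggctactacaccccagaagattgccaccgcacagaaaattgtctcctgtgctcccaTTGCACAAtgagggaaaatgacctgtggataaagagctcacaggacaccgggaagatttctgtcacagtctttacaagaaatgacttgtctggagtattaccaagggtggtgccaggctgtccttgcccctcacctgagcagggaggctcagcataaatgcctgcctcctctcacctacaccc
In a global alignment 238 of 249 aligned bases were identical (95.6%), and each holds 1 copy of the word, at -182 to -175 in Saa1 and at -183 to -176 in Saa2. The Saa1 probe lies at chr7:53996070-53996129 (mm9, minus strand) and reads as follows.
Saa1 probe: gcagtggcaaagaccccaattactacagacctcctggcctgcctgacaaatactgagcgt
The Saa2 probe is a different stretch at chr7:54009622-54009681 (plus strand). The transcripts are closely related, and cross-hybridization between them was not tested.

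The signal of Saa1 was 35271 in the fasted Cont, 12771 in the fasted Drp1LiKO, 23307 in the refed Cont and 45984 in the refed Drp1LiKO liver. Scaled to each array, these are log2 values of 6.26, 4.15, 6.03 and 6.45. The fasted Drp1LiKO liver stood apart as the low one, and the other 3 arrays lay within a narrow range. The genotype difference was -2.11 fasted, a 4.33-fold lower level, and 0.42 refed (SE 0.20 each). The refeeding difference was 2.31 in Drp1LiKO, or 4.94-fold, and -0.23 in Cont livers.

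The signal of Saa2 was 37605, 14969, 29684 and 50255 in the same order, and the scaled log2 values were 6.35, 4.37, 6.38 and 6.58. The pattern is that of Saa1. The genotype difference of Saa2 was -1.98 fasted and 0.20 refed, and its refeeding difference was 2.20 in Drp1LiKO and 0.03 in Cont livers.

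Saa3 encodes the serum amyloid A form that is made mostly outside hepatocytes, by macrophages and adipocytes among others. Saa3 was higher in the refed state in both genotypes. Its probe lies at chr7:53970389-53970448 (mm9, minus strand).
Saa3 probe: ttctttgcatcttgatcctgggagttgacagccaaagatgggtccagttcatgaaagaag
The signal of Saa3 was 1175 in the fasted Cont, 1489 in the fasted Drp1LiKO, 1947 in the refed Cont and 2832 in the refed Drp1LiKO liver, or 1.35, 1.04, 2.45 and 2.43 on the scaled log2 scale. Both refed livers were above both fasted ones. The refed level was 2.14-fold higher in Cont and 2.61-fold higher in Drp1LiKO livers, and the genotype difference was -0.31 fasted and -0.02 refed, both within 2 measurement SEs of 0.

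Orm1 and Orm2 encode orosomucoid (alpha-1-acid glycoprotein), a plasma carrier of small lipophilic molecules. They are neighbors on chromosome 4, and the probes are shown because closely related genes were read here by different stretches. By its mm9 coordinates the 60-base Orm1 probe covers 608 bases of genome (chr4:63006483-63007090, plus strand) and so crosses an intron, while the Orm2 probe is an unbroken stretch at chr4:63024979-63025038 (plus strand).
Orm1 probe: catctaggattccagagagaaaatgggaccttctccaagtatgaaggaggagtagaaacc
Orm2 probe: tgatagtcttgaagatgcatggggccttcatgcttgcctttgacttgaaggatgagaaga
The signal of Orm1 was 19822 in the fasted Cont, 19005 in the fasted Drp1LiKO, 15221 in the refed Cont and 36629 in the refed Drp1LiKO liver, with scaled log2 values of 5.43, 4.72, 5.41 and 6.12. The Cont livers hardly differed, with the fasted Drp1LiKO liver below and the refed one above them. The genotype difference of Orm1 was -0.71 fasted and 0.71 refed, and refeeding gave 1.40 in Drp1LiKO and -0.01 in Cont livers. Orm2 had scaled log2 values of 5.54, 4.81, 5.58 and 6.26, a genotype difference of -0.73 fasted and 0.68 refed, and a refeeding difference of 1.46 in Drp1LiKO and 0.05 in Cont livers. Both probes therefore showed the same order of the 4 arrays apart from the Cont livers, which lay within 1 measurement SE of each other.

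The upstream window of Orm2 (chr4:63362199-63362448, GRCm38.p6, plus strand) carries the C/EBP word close to the start, at -120 to -113, in capitals. Sequence for the upstream window of Orm1 was not used here.
Orm2 upstream: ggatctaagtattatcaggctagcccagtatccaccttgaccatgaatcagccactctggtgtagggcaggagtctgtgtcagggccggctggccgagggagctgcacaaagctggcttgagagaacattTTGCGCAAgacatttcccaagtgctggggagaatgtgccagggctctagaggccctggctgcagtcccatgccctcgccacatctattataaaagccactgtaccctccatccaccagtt

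Fgl1 encodes fibrinogen-like protein 1, a secreted hepatocyte protein and a ligand of the T cell receptor LAG-3. Its genotype difference was the most unlike between the feeding states, and 3 probes read it. The probe used for the gene lies at chr8:42276846-42276905 (mm9, minus strand). The others lie at chr8:42285849-42285908 and, crossing an intron by the 9152 bases it covers, at chr8:42285914-42295065. These 2 lie almost end to end, and they are shown because they repeat the reading away from the first probe.
Fgl1 second probe: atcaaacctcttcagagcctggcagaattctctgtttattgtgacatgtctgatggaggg
Fgl1 last probe: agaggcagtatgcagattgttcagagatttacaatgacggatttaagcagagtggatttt
The signal of the first probe was 53222 in the fasted Cont, 22534 in the fasted Drp1LiKO, 16489 in the refed Cont and 59544 in the refed Drp1LiKO liver, or 6.85, 4.96, 5.53 and 6.82 on the scaled log2 scale. The fasted Cont and the refed Drp1LiKO liver were the high pair and the other arrays the low pair. The genotype difference was -1.89 fasted and 1.29 refed, and the refeeding difference was -1.32 in Cont and 1.86 in Drp1LiKO livers (SE 0.20 each).

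The second Fgl1 probe gave genotype differences of -1.66 fasted and 1.74 refed, and the last gave -1.46 and 1.85. For refeeding they gave -1.52 and -1.58 in Cont and 1.88 and 1.72 in Drp1LiKO livers. All 3 probes put each of the 4 differences past 2-fold and in the same direction. Probes on 1 array share its RNA and labeling and are not replicates.

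Lcn2 encodes lipocalin-2, which binds iron-loaded bacterial siderophores and is made by hepatocytes in the acute phase and by neutrophils. Its upstream window (chr2:32387740-32387989, GRCm38.p6, minus strand) holds the C/EBP word at -216 to -209.
Lcn2 upstream: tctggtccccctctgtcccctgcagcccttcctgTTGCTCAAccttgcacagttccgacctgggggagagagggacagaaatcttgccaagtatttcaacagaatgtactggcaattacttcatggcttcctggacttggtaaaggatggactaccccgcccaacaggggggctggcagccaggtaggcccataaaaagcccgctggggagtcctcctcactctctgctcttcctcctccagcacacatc
The signal of Lcn2 was 2565 in the fasted Cont, 2499 in the fasted Drp1LiKO, 2791 in the refed Cont and 13320 in the refed Drp1LiKO liver. The scaled log2 values were 2.48, 1.79, 2.97 and 4.66, so that the refed Drp1LiKO liver alone was high. The refeeding difference in Drp1LiKO livers was 2.87, or 7.32-fold, larger than any other difference of a member, and it was 0.49 in Cont livers. The genotype difference of Lcn2 was -0.69 fasted and 1.70 refed.

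Hamp encodes hepcidin, the peptide hormone that closes the iron exporter ferroportin. Hamp was the one member with its lowest value on the fasted Cont array. Its probe lies at chr7:31727490-31727549 (mm9, minus strand), and the upstream window (chr7:30944030-30944279, GRCm38.p6, minus strand) is shown with the BMP response word GGCGCC and the STAT word TTCNNNGAA in capitals, since both are known inputs of this gene.
Hamp probe: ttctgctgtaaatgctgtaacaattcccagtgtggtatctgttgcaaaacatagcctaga
Hamp upstream: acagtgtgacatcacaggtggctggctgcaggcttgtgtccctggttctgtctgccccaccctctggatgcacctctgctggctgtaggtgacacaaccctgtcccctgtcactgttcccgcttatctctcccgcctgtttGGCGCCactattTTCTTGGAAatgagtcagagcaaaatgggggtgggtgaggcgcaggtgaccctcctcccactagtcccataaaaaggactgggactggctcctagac
The BMP response word is at -109 to -104 and the STAT word at -97 to -89. The signal of Hamp was 27410 in the fasted Cont, 80467 in the fasted Drp1LiKO, 56246 in the refed Cont and 73924 in the refed Drp1LiKO liver, with scaled log2 values of 5.89, 6.80, 7.30 and 7.14. The fasted Cont liver was low and the other 3 lay closer together. The genotype difference was 0.91 fasted and -0.16 refed, and the refeeding difference was 1.41 in Cont and 0.34 in Drp1LiKO livers, the latter turning to -0.16 after quantile normalization.

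Hp encodes haptoglobin, the scavenger of free hemoglobin, and Itih3 encodes a heavy chain of the inter-alpha-trypsin inhibitor family, which binds hyaluronan. Neither passed 2-fold in any difference. Hp is a very bright spot, with 99.8% of the genes read on all arrays dimmer than it, and its signals of 265882, 233075, 254088 and 257998 (fasted Cont, fasted Drp1LiKO, refed Cont, refed Drp1LiKO) were close together before scaling. Scaled, they were 9.17, 8.34, 9.48 and 8.94, lower in Drp1LiKO in both states (-0.84 fasted, -0.54 refed). After quantile normalization these differences were -0.26 and 0.00. The 15 negative acute-phase genes, also bright, had scaled medians of -0.57 and -0.48 and quantile medians of -0.01 and -0.09, so the scaled lower values of Hp stood near those of other abundant plasma protein genes.

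The signal of Itih3 was 51475, 62673, 33763 and 71009 in the same order, or 6.80, 6.44, 6.56 and 7.08 scaled. Its genotype difference was -0.36 fasted and 0.51 refed, the same directions as in Orm1 and Orm2 with smaller sizes. The fasted difference was -0.02 after quantile normalization, and its direction was opposite without any scaling between arrays (0.28, beside an unscaled median of 0.53 over all genes).

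**Figure D2:**
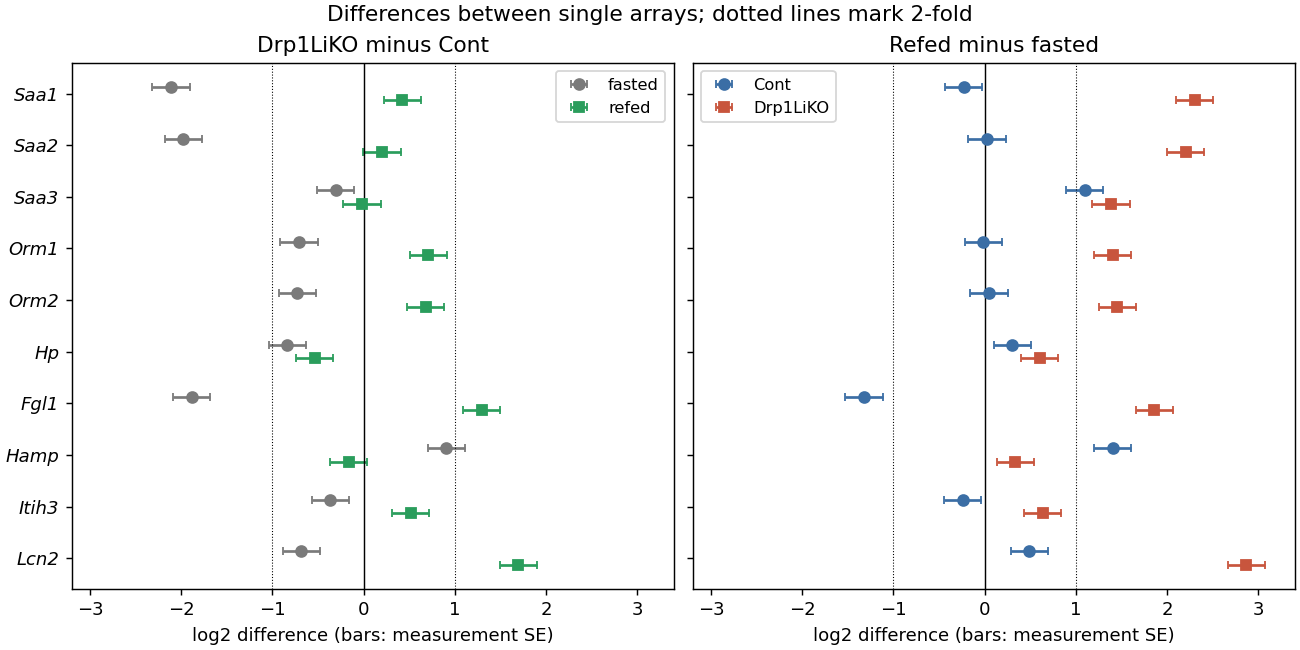
Log2 differences of each acute-phase protein gene between single arrays (x axes), Drp1LiKO minus Cont at left (circles fasted, squares refed) and refed minus fasted at right (circles Cont, squares Drp1LiKO), with bars for the measurement SE and dotted lines at 2-fold. At right all 10 Drp1LiKO points lie above 0, from 0.34 for Hamp (-0.16 after quantile normalization) to 2.87 for Lcn2, and the Cont points run from -1.32 for Fgl1 to 1.41 for Hamp.

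Of the 7 member genes with an upstream window from RefSeq (Saa1, Saa2, Saa3, Orm2, Hamp, Itih3 and Lcn2), 5 held the C/EBP word on either strand, all but Hamp and Itih3, as did 9.56% of 32851 upstream windows of the same length. The STAT word was found in 1, Hamp, against 7.02% of all windows. The NF-kB word GGNNTTTCC was found in 1, Saa3 at -187 to -179, against 4.93%, and the BMP response word in 1, Hamp, against 9.59%. A word match describes these letters only. The Saa1 and Saa2 windows are near copies, so their matches are not independent.

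The question that the 4 arrays pose for these genes is whether the genotype difference depends on the feeding state. The refed genotype difference minus the fasted one was at least 2-fold upward for 6 of the 10 members, against 1.87% of all genes, and at least 2-fold downward for 1, Hamp, against 2.38%. It was 3.18 for Fgl1, 2.54 for Saa1, 2.38 for Lcn2, 2.18 for Saa2, 1.42 for Orm1 and 1.41 for Orm2, each with a measurement SE of 0.29. Itih3 had 0.88, Hp 0.30, Saa3 0.29 and Hamp -1.07. The same quantity is the refeeding difference in Drp1LiKO minus that in Cont livers. An interaction leaves no residual degree of freedom with 4 arrays, so it could not be tested.

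**Figure D3:**
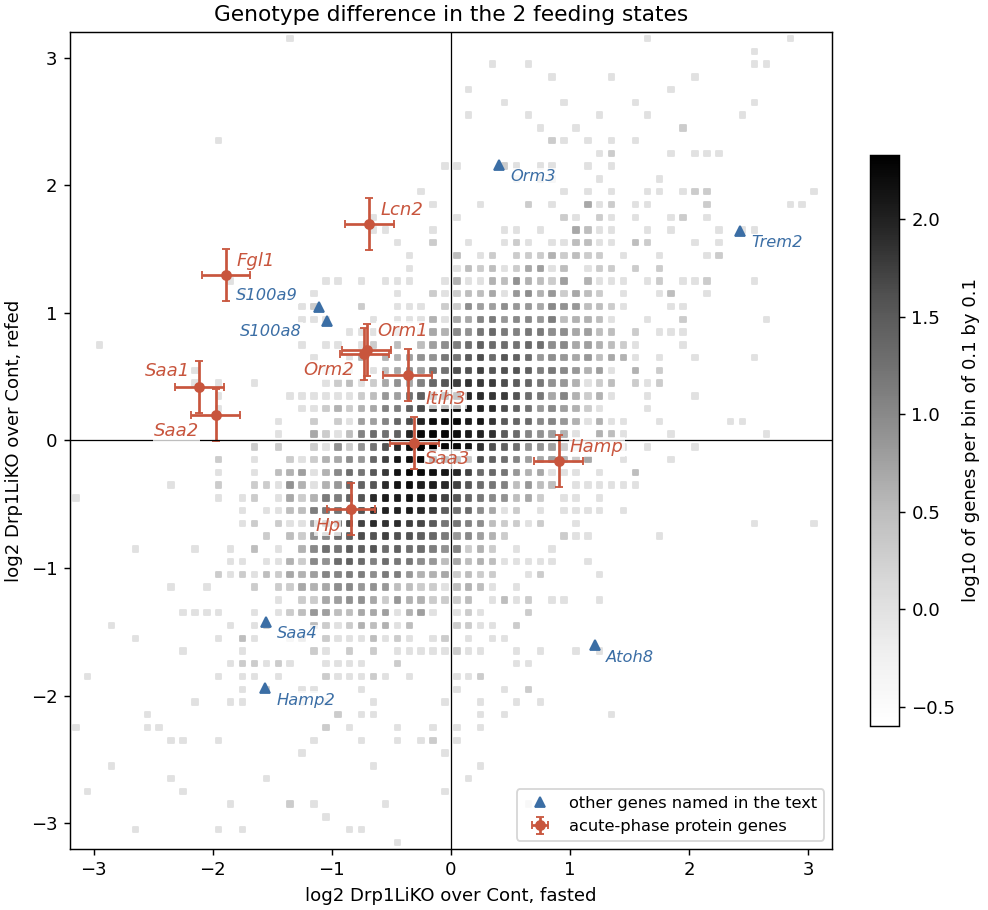
Log2 Drp1LiKO over Cont in fasted (x axis) and refed livers (y axis). Gray squares count the genes read on all 4 arrays (14447, of which 37 lie beyond the axes), red circles are the acute-phase protein genes with measurement SE bars, and blue triangles are other genes named in the text. Saa1, Saa2, Orm1, Orm2, Fgl1, Itih3 and Lcn2 lie in the upper left quadrant, which holds 14.4% of all genes, and Hamp lies at lower right.

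The test used was limma with genotype and refeeding as additive terms and 1 residual degree of freedom, in which an interaction of these terms counts as error. No gene of 16744 passed a Benjamini-Hochberg adjusted p of 0.05 in limma for genotype or for refeeding (0% called for both), while 28.3% and 26.4% had an unadjusted p under 0.05. Among the members 1 had an unadjusted p under 0.05 in each, Hp for genotype (log2 effect -0.69, limma adjusted p = 0.122, lower in Drp1LiKO in both states) and Saa3 for refeeding (log2 effect 1.24, limma adjusted p = 0.169, higher in both genotypes).

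The other positive acute-phase genes did not differ as a block with these members. Of 29 listed genes 27 were usable, that is, read well above background somewhere on the 4 arrays. After refeeding in Drp1LiKO livers 3 were at least 2-fold higher and 1 lower, against 2.85% and 3.02% of all genes. None passed 2-fold in Cont livers, against 1.6% higher and 2.37% lower. In the fasted genotype comparison 1 was higher and 4 were lower, against 2.75% and 3.31%. In the refed one 4 were higher and 3 lower, against 3.12% and 3.99%. The same shares are the background for the counts of every list below. They cover the genes read on all 4 arrays, while a usable gene was read on at least 1. The medians of the 26 genes read on all arrays were -0.49 fasted, -0.15 refed, -0.07 for refeeding in Cont and 0.28 in Drp1LiKO livers. After quantile normalization they were -0.16, -0.01, -0.27 and -0.03.

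Differences shared by both feeding states were found in Cd14, the lipopolysaccharide co-receptor, which was higher in Drp1LiKO (1.60 fasted, 1.56 refed), and in Saa4, the constitutive serum amyloid A (-1.55 and -1.42), and Hamp2, the hepcidin paralog (-1.56 and -1.94), which were lower. The paralogs of the members thus had their own values. Hamp2 had a signal of 1030 in the fasted Cont, 548 in the fasted Drp1LiKO, 954 in the refed Cont and 366 in the refed Drp1LiKO liver. Orm3, picked after its values were seen, had 574, 1192, 586 and 3859, with a refeeding difference of 2.15 in Drp1LiKO and 0.40 in Cont livers.

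Also picked after their values were seen, Apcs (serum amyloid P, 2.52-fold) and Lrg1 (leucine-rich alpha-2-glycoprotein, 2.01-fold) were at least 2-fold higher after refeeding in Drp1LiKO livers, and Lrg1 and Itih4 were lower in the fasted Drp1LiKO liver (-1.52 and -1.31). After quantile normalization these refeeding differences were 1.14 for Apcs and 0.47 for Lrg1. The fasted differences were then -1.10 for Lrg1 and -0.83 for Itih4, so Lrg1 after refeeding and Itih4 fell short of 2-fold. Crp and the fibrinogen chain genes Fga, Fgb and Fgg did not pass 2-fold in any difference. Of the negative acute-phase genes 1 of 15 passed 2-fold, Serpina6, the glucocorticoid carrier, which was lower in the refed Drp1LiKO liver (-1.69).

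Among the regulators, Il6 was well above background on none of the arrays. Tnf was well above it on the 2 Drp1LiKO arrays alone, with signals of 33 and 38 there. The lowest scaled log2 value read well above background was itself lower on those arrays (-4.76 fasted and -4.54 refed, against -3.96 and -3.55 in Cont). The refed Cont value of Tnf (-4.15, signal 20) lay above the fasted Drp1LiKO one (-4.45). No genotype difference of Tnf could therefore be read in either state. Il1b was dim, with signals of 135, 149, 114 and 224 (fasted Cont, fasted Drp1LiKO, refed Cont, refed Drp1LiKO), and its refeeding difference was 1.05 in Drp1LiKO and 0.11 in Cont livers. Liver RNA shows which transcripts are present in the organ and does not measure cytokines that arrive in the blood.

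Of 18 usable genes of the IL-6 and STAT3 arm, 2 were at least 2-fold lower and none higher in the fasted Drp1LiKO liver, and 1 was higher and 1 lower in the refed one. Lifr, the receptor of leukemia inhibitory factor, was lower in both states (-1.46 and -1.81). Il6ra, the interleukin-6 receptor, differed by -0.24 and -0.30, and Stat3 by -0.75 and -0.11. Socs3, the STAT3-induced feedback inhibitor, had signals of 1495, 1171, 261 and 371 and was lower after refeeding in both genotypes (-2.15 in Cont, -1.20 in Drp1LiKO). Between the genotypes Socs3 differed by -0.9998 fasted, just short of 2-fold, and -0.05 refed (log2 Drp1LiKO over Cont). Of the C/EBP factors, Cebpb had refeeding differences of -0.37 in Cont and -0.70 in Drp1LiKO livers and Cebpd had -0.52 and -1.26. Cebpd was 0.87 higher in the fasted Drp1LiKO liver and 0.13 higher in the refed one.

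Of 23 usable genes of the IL-1, TNF and NF-kB arm, 3 were at least 2-fold higher and 1 lower in the fasted and 2 higher and 1 lower in the refed Drp1LiKO liver. The lower gene in the fasted comparison, named after its values were seen, was Nfkbiz (4.55-fold). Higher in both states were Tnfaip3, the NF-kB-induced ubiquitin-editing inhibitor (2.84-fold fasted and 2.95-fold refed), and Nfkb1 (2.32-fold fasted and at least 2.11-fold refed, where the Cont probe was not well above background). Nfkbia, the inhibitor that NF-kB itself induces, differed by -0.33 and -0.48 on the log2 scale. For such a bound, the dim side is set to its own value or to the lowest well-above-background value of its array, whichever is larger.

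The BMP and hepcidin arm is set beside Hamp. Of 21 usable genes, 5 were at least 2-fold higher and 1 lower in the fasted Drp1LiKO liver, the comparison in which Hamp was higher, while none was higher and 1 lower in the refed livers. Id1, a BMP target, had signals of 403 in the fasted Cont, 2067 in the fasted Drp1LiKO, 681 in the refed Cont and 1475 in the refed Drp1LiKO liver. Its genotype difference was 1.71 fasted and 0.56 refed, and refeeding gave 1.13 in Cont and -0.03 in Drp1LiKO livers, so Id1 shared with Hamp the low value on the fasted Cont array. Bmp6, the iron-induced ligand, was 1.23 higher fasted and 0.10 higher refed, and Smad7, a feedback inhibitor, 0.77 and 0.20. Atoh8, a BMP target, was higher fasted (1.21) and lower refed (-1.61). The remaining genes past 2-fold in the fasted livers, named after their values were seen, were Hjv (1.03), Smad1 (1.09) and, lower, Smad6 (-1.49).

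Of 14 usable receptors and partners of these proteins, 2 were at least 2-fold higher and 2 lower in the fasted and 3 higher and none lower in the refed Drp1LiKO liver. Itih5, of the same inhibitor family as Itih3, was higher in both (1.07 and 1.11). Cd163, the receptor for haptoglobin bound to hemoglobin, was well above background on no array. Ambp, which encodes bikunin, the partner of the heavy chains, and the heavy chain genes Itih1 and Itih2 did not pass 2-fold.

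Markers of other cells differed along with some of these values. In whole liver, fewer cells of a type and less RNA per cell cannot be told apart. Of 12 neutrophil markers 7 were well above background on all arrays, and Ngp, Cxcr2 and Mmp8 on none. S100a9 had signals of 1246 in the fasted Cont, 906 in the fasted Drp1LiKO, 1000 in the refed Cont and 3035 in the refed Drp1LiKO liver, with genotype differences of -1.11 and 1.04 and refeeding differences of 0.05 in Cont and 2.20 in Drp1LiKO livers. S100a8, chosen after its values were seen, had -1.04, 0.94, 0.38 and 2.36 in the same order. That is the order of arrays seen for Lcn2. Retnlg, another neutrophil marker, had -1.59 and -0.74 between the genotypes and -0.87 and -0.02 for refeeding. In the same order Camp had -0.70, 0.73, 0.17 and 1.60, while Ly6g had 0.08, 0.02, 0.28 and 0.22. Elane had -0.19, -0.25, 0.47 and 0.42. The medians of the 7 markers read on all arrays were -0.70 fasted, 0.02 refed, 0.17 for refeeding in Cont and 0.42 in Drp1LiKO livers. In all, 3 of the markers were at least 2-fold lower in the fasted Drp1LiKO liver, none lower and 1 higher in the refed one. After refeeding in Drp1LiKO livers 5 were higher, Mpo and Ltf among them only as bounds, with refed signals of 47 and 50. The summed scaled level of the list without its brightest gene, Csf3r, was 6.48, 3.93, 7.28 and 11.2 times the 75th percentile (fasted Cont, fasted Drp1LiKO, refed Cont, refed Drp1LiKO). With Csf3r it was 94.8, 67.8, 57.7 and 60.6. The part of neutrophil RNA in the values of Lcn2 and the other members was not tested.

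Of 14 macrophage markers 5 were at least 2-fold higher in Drp1LiKO in each feeding state, against 2.75% of all genes fasted and 3.12% refed. None was at least 2-fold lower, against 3.31% and 3.99%. At least 2-fold higher in both were Trem2 (log2 2.43 fasted, 1.64 refed), Marco (1.65 and 1.61), Lyz2 (1.38 and 1.53) and Gpnmb (5.38-fold fasted and at least 3.65-fold refed). Clec4f, Timd4 and Csf1r had negative fasted differences (-0.16, -0.42 and -0.35) and positive refed ones (0.34, 0.32 and 0.24). The summed scaled level of the 14 markers was 109, 129, 121 and 210 in the order above, highest in the refed Drp1LiKO liver. The part of macrophage RNA in the values of Saa3 and Lcn2 was not tested.

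Of the other marker lists, the counts at least 2-fold higher and lower in Drp1LiKO were 0 and 0 fasted and 1 and 0 refed for 10 hepatocyte genes, 0 and 0 then 1 and 0 for 6 T and B cell genes, and 0 and 0 in both states for 8 endothelial genes. They were 3 and 0 then 0 and 0 for 8 stellate and fibroblast genes, 2 and 1 then 1 and 0 for 5 cholangiocyte genes, and 1 and 1 then 0 and 1 for 2 adipocyte genes. The adipocyte genes Adipoq, Plin1, Lep and Retn were well above background on no array.

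**Figure D4:**
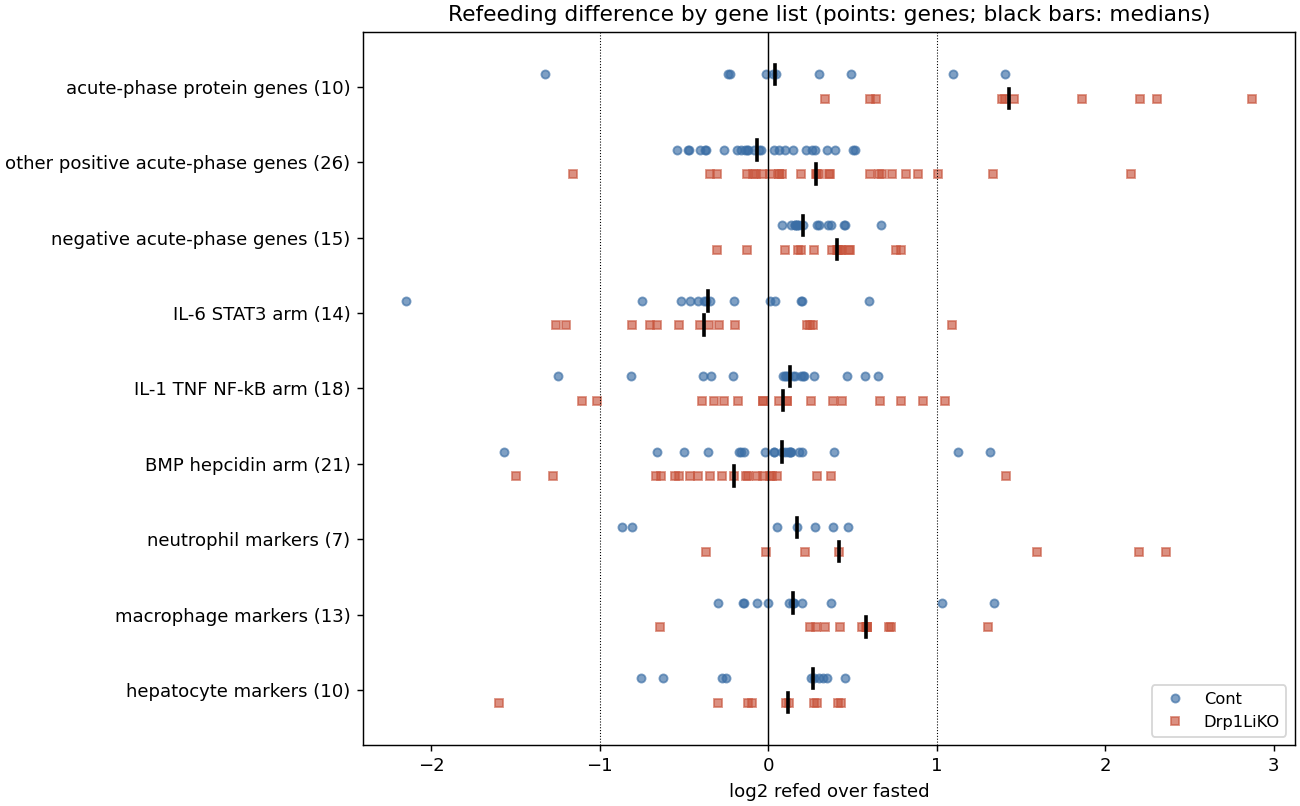
Log2 refed over fasted (x axis) for the genes of 9 lists read on all 4 arrays (number in parentheses), in Cont (blue circles) and Drp1LiKO livers (red squares), with black bars for list medians and dotted lines at 2-fold. The acute-phase protein genes have medians of 0.04 and 1.43, and the IL-6 and STAT3 arm has medians of -0.36 and -0.38.

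The genes nearest to the median profile of the members over the 4 arrays, by Euclidean distance between centered log2 values among genes read on all arrays, were Inhba (0.15), Tfrc (0.21), Camp (0.21), Insig1 (0.24) and Nnmt (0.25). Inhba encodes a subunit of activin, Tfrc the transferrin receptor, Camp the neutrophil peptide cathelicidin, Insig1 the sterol-sensing retention protein and Nnmt nicotinamide N-methyltransferase. Orm2 (0.15) and Orm1 (0.19) were the members closest to their own median profile, and Hamp and Lcn2 were the farthest (Lcn2 at 1.23). With 4 values per gene this is a description of these arrays.

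The arrays of the 2 genotypes differ in their 75th percentile, and bright spots differed less between arrays than the percentile did, so the normalization moves the values of these bright genes. The fasted median of the members was -0.72 with scaling to the 75th percentile and -0.43 after quantile normalization, and the refeeding median in Drp1LiKO livers was 1.43 and 1.16. Past 2-fold under scaling to the 75th percentile or the median, quantile normalization, the intensity-dependent centre and normexp were the lower fasted values of Saa1, Saa2 and Fgl1, the higher refed values of Fgl1 and Lcn2, and the refeeding differences of Saa1, Saa2, Saa3, Fgl1 and Lcn2 in Drp1LiKO livers. The same held for the refeeding differences of Fgl1 (-1.32, and -1.61 with quantile normalization) and Hamp (1.41 and 1.08) in Cont livers. Orm1 after refeeding in Drp1LiKO livers went from 1.40 to 0.99 and Hamp in the fasted comparison from 0.91 to 1.23 with quantile normalization, each crossing 2-fold. The 6 members with an upward difference of the genotype differences past 2-fold stayed 6 in number under all of these settings.

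**Figure D5:**
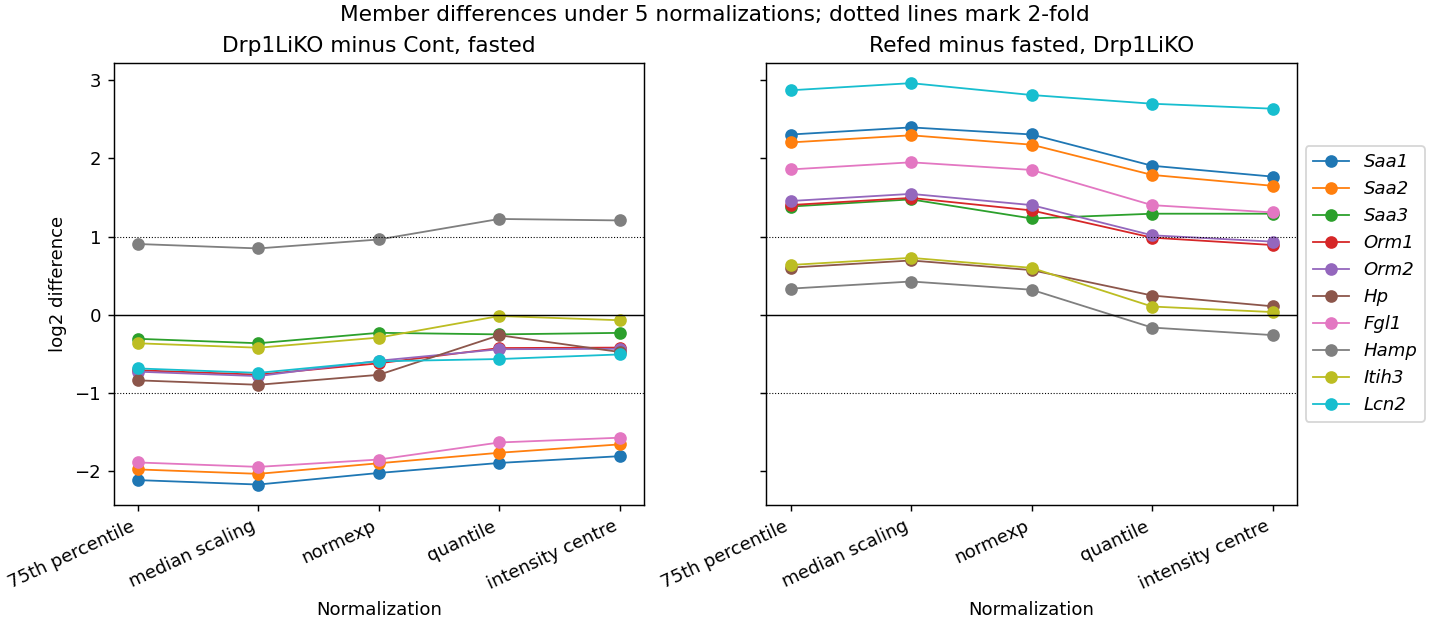
Log2 difference (y axes) of each acute-phase protein gene under 5 normalizations (x axis), Drp1LiKO minus Cont in fasted livers at left and refed minus fasted in Drp1LiKO livers at right, with dotted lines at 2-fold. Saa1, Saa2 and Fgl1 stay below -1 at left and Lcn2, Saa1, Saa2, Fgl1 and Saa3 above 1 at right, while Hp, Itih3 and Hamp move toward or across 0 at right.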

How the data were processed

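The intensity values are the processed signals of Agilent Feature Extraction that the authors deposited for 4 one-color arrays on 1 slide and in 1 scan, background-subtracted and not normalized between arrays. The authors' value table of linear signal intensity was recalculated as their quantile normalization (column medians all 39.6) and used as an alternative. The array design and RNA kit in the labels differ from those of the methods, and the files carry the labelled design. Outlier spots were left out, and each log2 signal had the log2 of its array's 75th percentile over gene spots subtracted. A gene was read from the probe well above background on the most arrays, then the brightest. Probes were renamed by RefSeq accession (26761 of 28389 matched). A difference was called at 2-fold. The members and lists were chosen with earlier results of these data known. Other genes named are those at least 2-fold changed alike in both genotype comparisons, else at most 2 per list, 12 fixed regulators and the 5 nearest profiles, with exceptions stated and 1 gene not reported here. limma 3.58.1 (R 4.3.3) tested an additive model on the 16744 genes read well above background by 2 or more arrays. A check on simulated data used a common spread and no interaction, so it does not cover genes that have an interaction. Python 3.11.15, numpy 2.4.6, pandas 2.3.3, matplotlib 3.10.9 and Biopython 1.88 did the rest. Alternatives were other scalings, background corrections, probe and spot choices, filters and thresholds.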

Additional observations from a re-analysis of the deposited data

Results flagged for a closer look

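In 5 members the genotype difference had opposite directions in the 2 feeding states, each more than 2 measurement SEs from 0, lower in the fasted and higher in the refed Drp1LiKO liver. The refed minus the fasted log2 difference was 3.18 for Fgl1, 2.54 for Saa1, 2.38 for Lcn2, 1.42 for Orm1 and 1.41 for Orm2. The fasted side of Orm1, Orm2 and Lcn2 depends on the scaling. Without scaling between arrays their fasted differences were -0.061, -0.079 and -0.038, each within 1 measurement SE of 0, beside a median of 0.53 over all genes. After quantile normalization they were -0.42, -0.44 and -0.57, beside a median of -0.01 over all genes. With 1 array per condition the difference between the states was not tested.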

How the results depend on the processing

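No difference past 2-fold changed direction under any alternative. With quantile normalization, which gave the same values as the authors' table, the median difference of the members was -0.43 fasted, -0.23 for refeeding in Cont and 1.16 in Drp1LiKO livers, with 1 member (Hamp) at least 2-fold higher in the fasted Drp1LiKO liver and 1 at least 2-fold higher after refeeding in Cont livers. With the intensity-dependent centre, the medians were -0.45, -0.30 and 1.11, and 1 member was at least 2-fold higher in the fasted Drp1LiKO liver. With normexp 1 member was at least 2-fold higher after refeeding in Cont livers. With median scaling no member (0) had a downward difference of the genotype differences past 2-fold, as Hamp fell just short. At a threshold of 1.5-fold, 1 member was higher and 7 were lower in the fasted and 4 were higher in the refed Drp1LiKO liver. The share of all genes past 1.5-fold was not computed, so these counts have no background to be read against. Signals not scaled between arrays, an alternative chosen after seeing the data, gave medians of -0.070 fasted, 1.03 refed, -0.33 for refeeding in Cont and 0.97 in Drp1LiKO livers. Over all genes the unscaled medians were 0.53, 0.48, -0.26 and -0.34 in the same order. Unscaled, 1 member was at least 2-fold higher in the fasted and 5 in the refed Drp1LiKO liver, and 1 and 4 were higher after refeeding in Cont and Drp1LiKO livers. The share of all genes past 2-fold without scaling was not computed. Of the 50 member values, counting each member's 4 differences and their difference, 25 moved by more than 1 measurement SE with quantile normalization, 25 with the intensity-dependent centre and 40 without scaling.

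The additive limma model called 1214 genes for genotype and 15 for refeeding over the genes read well above background by every array, 474 for genotype with an intensity trend and 1 for genotype without the refeeding term, where the model as specified called 0. No member passed an adjusted p of 0.05 under any of these, and the lowest limma adjusted p was 0.0597 for genotype (Hp) and 0.0679 for refeeding (Saa3). The cause was not tested. No paired analysis was possible because each group has 1 array and the groups share 1 replicate number. Signal over background did not limit the members, since all their spots were well above it on every array.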
